A study of Brassica carinata and Brassica napus and Brassica carinata x Brassica napus with 3 samples.

Results

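The genes described here encode plasma membrane-type proton and calcium pumps, cyclic nucleotide-gated channels, potassium channels and cation/H(+) antiporters, measured in floral buds of 2 Brassica species and their hybrid. They were chosen by protein name: an assembled sequence was a member if the name of its best Swiss-Prot hit held 1 of those terms and the Swiss-Prot score was at least 0.6 of the score of its best hit in Nr, the non-redundant protein database. This gave 356 sequences of 202 to 4929 bases, which were summed into 56 genes (Swiss-Prot entries) of 10526 in all that met the same score ratio. All 356 best hits were Arabidopsis thaliana proteins, so each gene is named for its Arabidopsis counterpart. The set has 10 proton ATPases (AHA), 7 calcium ATPases (ACA), 14 cyclic nucleotide-gated channels (CNGC), 14 potassium channel proteins and 11 cation/H(+) antiporters (CHX).

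The study sequenced RNA from floral buds at the initial flowering stage, with 1 library for each of 3 groups: B. carinata cultivar W29, B. napus cultivar Zhongshuang 11, and a hybrid between these species for which no cultivar is labelled. The 2 species are allotetraploids that share the C genome. The sources used here do not state the direction of the cross, the generation or ploidy of the hybrid, or how many plants were pooled. In units of 1000000 counted reads, the depth was 28.1 for B. carinata, 27.1 for the hybrid and 28.2 for B. napus. With 1 library per group no difference below has a replicate check and none was tested. Intervals (95%) of read ratios are exact binomial intervals that cover counting error only, not the spread between plants or libraries. They can be too narrow even for counting error, since PCR copies of a molecule could not be told from separate molecules.

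Plasma membrane proton ATPases expel protons and set up the voltage and pH gradients that drive uptake of other ions. Pollen tubes grow at the tip with a standing proton current, a calcium gradient at the tip and an influx of potassium. In Arabidopsis these fluxes involve pollen forms of the families measured here: the pump AHA6 and its relatives AHA8 and AHA9, the calcium pump ACA9, the calcium-permeable channel CNGC18 and the inward potassium channel SPIK (AKT6). AHA6, ACA9, CNGC18 and SPIK, called the 4 pollen forms here, are set against the other 52 members, which include AHA8 and AHA9.

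The 4 pollen forms differed from each other in pattern: AHA6 was high in B. napus alone, SPIK was low in the hybrid alone, ACA9 lay within 2-fold and CNGC18 was too low to compare. The hybrid stood below B. napus for the 3 that could be compared, though by very different amounts. The proton pump AHA6 had 0.99 RPKM (reads per kilobase and per 1000000 reads, summed over the sequences of a gene) in B. carinata and 0.38 in the hybrid, against 55.5 in B. napus. Its reads numbered 83, 35 and 5265. The read rate in B. carinata was 0.0158 of that in B. napus (interval 0.0126 to 0.0196), and in the hybrid it was 0.00693 of that in B. napus (interval 0.00482 to 0.00965). B. napus therefore stood alone at a high level, and all but 1 of the AHA6 reads came from a single assembled sequence of 3359 bases.

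AHA9, the anther and pollen relative of AHA6, was as uneven. It had 1.52 RPKM in B. carinata and 0.91 in the hybrid, against 69.95 in B. napus, the highest level among the genes listed here as known from pollen. The read rate was 0.0234 of the B. napus rate in B. carinata (interval 0.0172 to 0.0312) and 0.0137 of it in the hybrid (interval 0.00900 to 0.0200). Its 2 sequences, of 1135 and 879 bases, went the same way, with 46, 24 and 1416 reads and with 2, 3 and 640 reads in B. carinata, the hybrid and B. napus. AHA8, also a pollen pump, was low throughout, at 2.51, 0.79 and 4.29 RPKM, so that only AHA6 and AHA9 of the pollen pumps passed the filter of 5 RPKM in the higher library. AHA7, known from root hairs and pollen, had 0, 10 and 9 reads.

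Of the 39 members with at least 5 RPKM in 1 library, 2 stood at least 10-fold higher in B. napus than in both other libraries after adding 1 RPKM to each value, AHA6 and AHA9. Among all 8510 Swiss-Prot entries at that level the share was 0.999%. No member stood 10-fold below both others in B. napus (0.846% of all entries), 10-fold above (0.118%) or below (0.2%) both in B. carinata, or 10-fold below both in the hybrid (0.0353%).

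**Figure D1:**
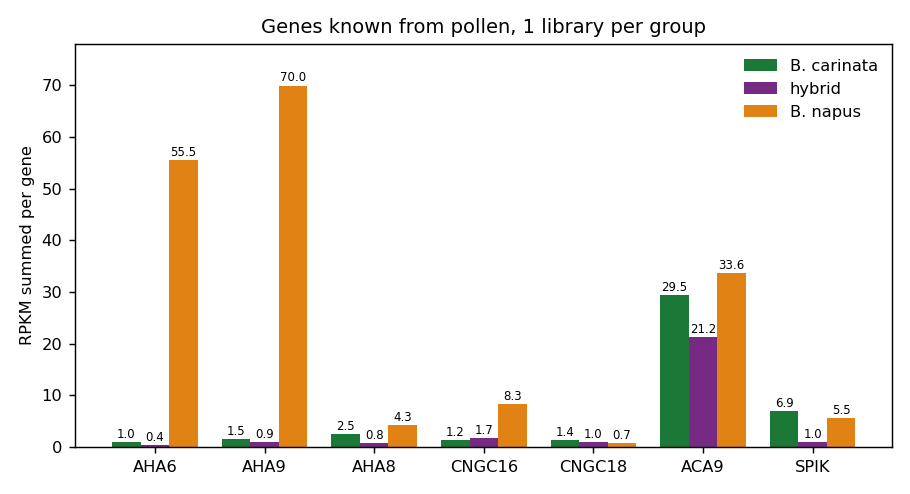
RPKM summed per gene (y axis, from 0) for 7 genes known from pollen, in the single library of each group (bars, with the value printed above). AHA6 and AHA9 reach 55.5 and 69.95 RPKM in B. napus and stay at or under 1.52 RPKM in B. carinata and the hybrid, whereas ACA9 lies between 21.2 and 33.6 RPKM in the 3 libraries.

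The calcium pump ACA9, which in Arabidopsis is needed for pollen tube growth and release of sperm, was detected in all 3 libraries. It had 29.5 RPKM in B. carinata and 21.2 in the hybrid, against 33.6 in B. napus, all within 2-fold. By reads, which weigh its 12 sequences by length, the spread was wider: 469, 371 and 761 reads, a rate of 0.618 of B. napus in B. carinata (interval 0.550 to 0.695) and of 0.508 in the hybrid (interval 0.448 to 0.576). The measures parted at short sequences. A fragment of 232 bases had 55, 7 and 0 reads and another of 229 bases had 33, 28 and 0, while the longest sequence, of 1093 bases, had 225, 192 and 365. Over sequences of at least 500 bases the log2 ratio of ACA9 to B. napus was -0.96 in B. carinata and -1.16 in the hybrid, instead of -0.19 and -0.64. Over sequences with reads in all 3 libraries it was -0.97 and -1.05, so that ACA9 in the hybrid then lay just past 2-fold below B. napus and the pollen forms lower there numbered 3 instead of 2.

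The potassium channel SPIK was low in the hybrid alone. It had 6.89 RPKM in B. carinata and 0.96 in the hybrid, against 5.51 in B. napus, with 83, 12 and 69 reads. The parents were close to each other (read ratio of B. carinata to B. napus 1.21, interval 0.866 to 1.69), and the hybrid lay below both, at 0.15 of B. carinata (interval 0.0746 to 0.277) and 0.181 of B. napus (interval 0.0894 to 0.337). SPIK was the only member at least 2-fold below both parents in the hybrid, a pattern shown by 1.23% of all entries. The reads fell on 3 fragments of 461, 460 and 243 bases, and none had more than 6 reads in the hybrid. The result rests on the score ratio: without it, 3 ankyrin repeat sequences whose best Swiss-Prot hit is also SPIK join the sum, and the hybrid then differs by -0.15 from B. carinata and 0.13 from B. napus on the log2 scale.

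CNGC18, the calcium-permeable channel without which Arabidopsis pollen tubes fail, was too low to compare. A single fragment of 305 bases held 12, 8 and 6 reads in B. carinata, the hybrid and B. napus, and every read ratio had an interval that included 1. One further sequence bears on it. It was counted under CNGC16, a channel known from pollen under heat stress, but its Nr hit is CNGC18 of Arabidopsis lyrata, and its score ratio of 0.608 was the lowest of all members. This sequence of 724 bases had 10, 0 and 84 reads. Counting by the Nr name, which also admits a fragment of 288 bases below the score ratio, gave CNGC18 3 sequences with 32, 10 and 90 reads, a rate in the hybrid of 0.116 of B. napus (interval 0.0537 to 0.223). Just outside the limit on the score ratio lay a CNGC6 sequence at 0.526, with 210, 208 and 490 reads.

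CNGC16 as counted had 1.25 RPKM in B. carinata and 1.72 in the hybrid, against 8.31 in B. napus. It was the third member, after AHA6 and AHA9, at least 2-fold higher in B. napus than in both others, where 5.75% of all entries stood. Its read rate in the hybrid was 0.124 of B. napus (interval 0.0692 to 0.210). Without the sequence that Nr names CNGC18, it had 11, 16 and 50 reads, and the RPKM stayed under 5 in every library. Over sequences with reads in all 3 libraries its log2 ratio to B. napus was -0.10 in B. carinata and -0.23 in the hybrid.

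Of the 10 further genes of these families listed here as known from Arabidopsis pollen, 6 were matched. Besides AHA7, AHA8, AHA9 and CNGC16 these were the antiporters CHX21 and CHX23, known for pollen tube guidance, with 14, 0 and 0 reads and 6, 0 and 1 reads. Neither of these antiporters reached 5 RPKM. ACA7, CNGC7, CNGC8 and TPK4 had no sequence named for them at this score ratio.

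Other markers of mature pollen were, like AHA6 and AHA9, highest in B. napus. Of 6 listed markers 5 were matched, and their summed level was 24.0 RPKM in B. carinata and 20.3 in the hybrid, against 349.5 in B. napus. None was at 0: the pectin methylesterase PPME1 had 0.28, 0.50 and 127 RPKM, the actin-binding protein ADF7 had 0.24, 0.07 and 22.0 RPKM, and the pollen arabinogalactan protein AGP11 had 11.4, 8.14 and 115.2 RPKM. Tapetal markers were highest in B. carinata, with a summed level of 3996 RPKM there and 939 in the hybrid, against 765 in B. napus over 3 of 3 matched. Most of that sum was A9, at 3665, 853 and 729 RPKM. AMS had 68.3, 28.6 and 21.8 RPKM and ACOS5 had 262, 57.4 and 14.5 RPKM. The hybrid thus lay within 2-fold of B. napus for A9 and AMS but not for ACOS5. The petal and stamen genes AP3 and PI summed to 641, 564 and 387 RPKM. Petal and stamen genes were thus present in all 3 libraries. The part of these cell types in the pump results was not tested. In bulk buds with 1 library per group, fewer pollen grains, less RNA per grain and a difference in bud age cannot be told apart.

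The 5 proton pumps AHA1, AHA2, AHA3, AHA5 and AHA11 lay within 2-fold in the 3 libraries by RPKM as deposited. AHA2 and AHA1, the main pumps of most plant cells, had 112, 129 and 156 RPKM and 81.05, 69.9 and 55.1 RPKM in B. carinata, the hybrid and B. napus. AHA3, known from phloem companion cells, had 64.9, 48.2 and 49.7 RPKM. AHA11 had 27.4, 22.2 and 15.9 RPKM and AHA5 had 10.95, 9.09 and 9.21 RPKM. AHA11 came nearest to 2-fold, with a parental log2 ratio of 0.75 and a read ratio of 1.83 (interval 1.72 to 1.93). TMM factors and the median of ratios each moved the parental median over all entries by 0.28. Ratios of these 5 genes under those scalings are not given. The seed coat pump AHA10 had no read.

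The 8 proton ATPases other than AHA6 and AHA9 summed to 299 RPKM in B. carinata and 280.0 in the hybrid, against 291 in B. napus. With AHA6 and AHA9 the sums were 301, 281 and 417 RPKM. AHA6 and AHA9 together made up 26.7% of the proton ATPase reads in B. napus (interval 26.2 to 27.2), 0.742% in B. carinata (interval 0.621 to 0.880) and 0.373% in the hybrid (interval 0.286 to 0.478; Clopper-Pearson). Pumps of this family are similar in sequence, so reads could be split between close copies.

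**Figure D2:**
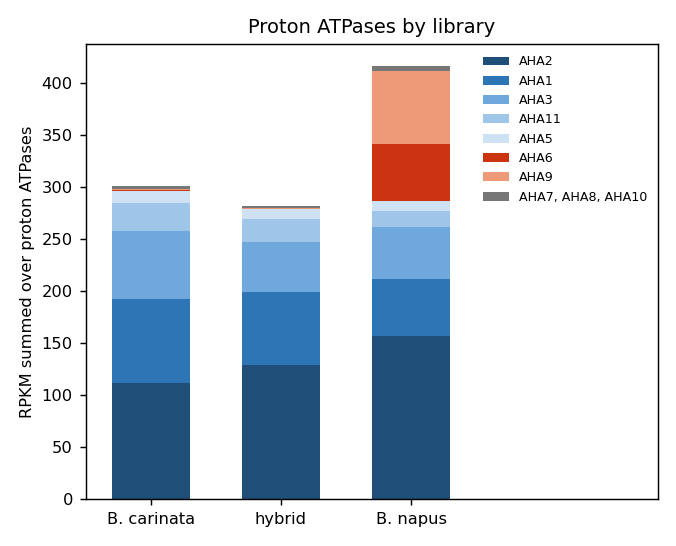
RPKM summed over the 10 proton ATPases (y axis), stacked by gene, for the single library of each group (x axis). The blue genes other than AHA6 and AHA9 reach nearly the same height in the 3 libraries, and the red and orange parts, AHA6 at 55.5 RPKM and AHA9 at 69.95 RPKM, are visible in B. napus.

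The calcium ATPases were the most even family. In Arabidopsis ACA8 and ACA10 sit in the plasma membrane, ACA4 in small vacuoles and ACA2 in the endoplasmic reticulum, whatever the entry name says. ACA8 had 100.5 RPKM in B. carinata and 131 in the hybrid, against 130.1 in B. napus. ACA4 had 111, 111 and 92.7 RPKM and ACA2 had 75.8, 81.5 and 90.75 RPKM. ACA10 had 19.85, 16.9 and 21.1 RPKM and ACA12 had 9.33, 8.46 and 9.13 RPKM. All 6 genes that passed the filter, ACA9 included, lay within 2-fold in every comparison, and ACA13, with 1, 0 and 8 reads, did not pass it.

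Among the cyclic nucleotide-gated channels, CNGC2 stood out in B. carinata. CNGC2 and CNGC4 are subunits that act in calcium signalling and immunity in Arabidopsis leaves. In B. carinata CNGC2 had 55.2 RPKM, against 32.5 in the hybrid and 17.5 in B. napus, so that the hybrid lay between its parents, and the read ratio of B. carinata to B. napus was 2.83 (interval 2.65 to 3.03). CNGC4 did not follow it. It had 39.8, 56.7 and 33.8 RPKM, with the hybrid highest through a fragment of 435 bases with 192, 482 and 205 reads, and its read ratio of B. carinata to B. napus was 0.734 (interval 0.669 to 0.805).

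CNGC17 ran against CNGC2. Its levels were 8.27, 12.3 and 18.8 RPKM in B. carinata, the hybrid and B. napus, and its parental read ratio was 0.502 (interval 0.440 to 0.573). Its log2 ratio of -1.09 became -0.83 with TMM factors, inside 2-fold. CNGC14, known from roots and root hairs, had 5.85, 5.12 and 1.82 RPKM from 53, 42 and 17 reads. CNGC6, CNGC20 and CNGC3 lay within 2-fold, at 44.1, 34.8 and 32.0 RPKM, 19.9, 13.4 and 16.4 RPKM, and 12.5, 11.6 and 16.7 RPKM. CNGC1, CNGC5 and CNGC12 also passed the filter and lay within 2-fold, and CNGC10, CNGC11 and CNGC18 did not pass it.

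**Figure D3:**
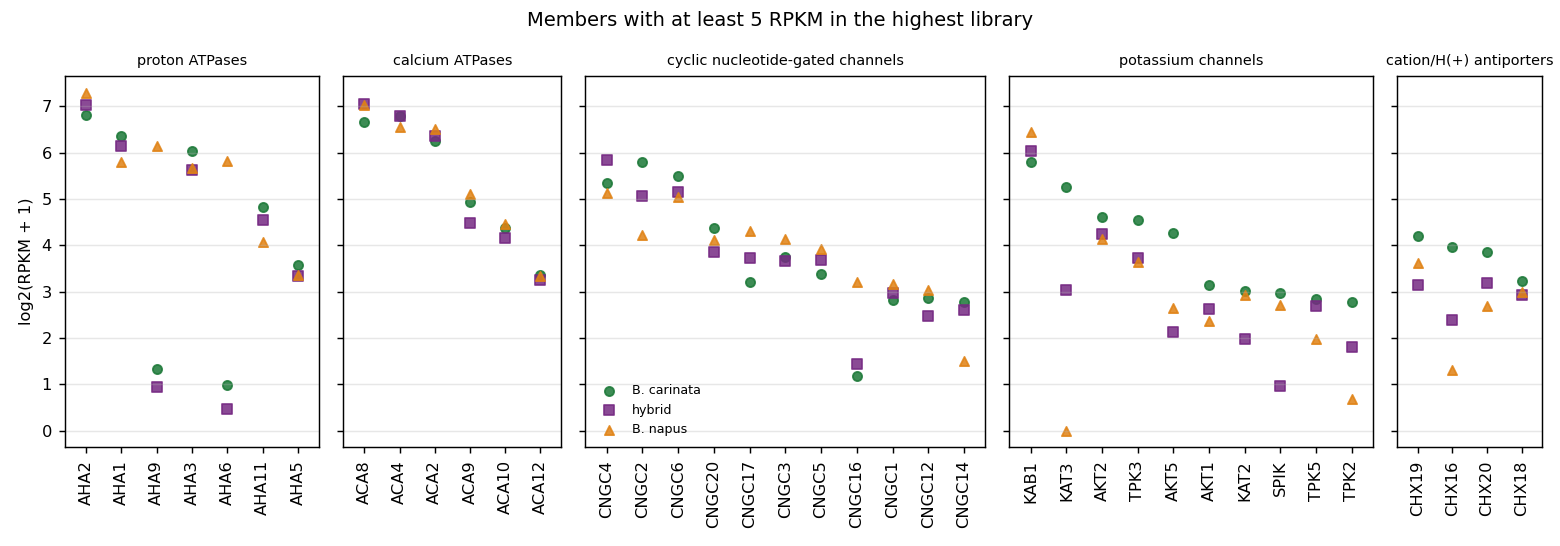
Level of the members with at least 5 RPKM in the highest library, 39 less 1 that is not shown (y axis, log2 of RPKM plus 1), by family, with 1 point per library. AHA6, AHA9 and CNGC16 have the B. napus point far above the other points, KAT3 has it at 0, and SPIK has the hybrid point lowest.

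Of 11 potassium channels that passed the filter between the hybrid and B. carinata, 4 were lower in the hybrid by 2-fold or more (36.4%, against 8.44% of all entries): KAT3, AKT5, SPIK and KAT2. KAT3, a silent subunit that modulates other channels, had 37.6 RPKM in B. carinata and 7.16 in the hybrid, against 0 in B. napus. With 385 B. carinata reads against 0 from B. napus it was at least 129-fold higher in B. carinata (a count of 0 set to 3 reads per library), and the hybrid, with 70 reads, stood at 0.189 of B. carinata (interval 0.144 to 0.244). All but 1 of these reads fell on a fragment of 364 bases. AKT5, a relative of SPIK, had 18.4 RPKM in B. carinata and 3.34 in the hybrid, against 5.31 in B. napus. Its read rate in the hybrid was 0.168 of B. carinata (interval 0.133 to 0.211) and 0.590 of B. napus (interval 0.450 to 0.769).

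KAT2, a guard cell channel, had 7.11 RPKM in B. carinata and 2.96 in the hybrid, against 6.64 in B. napus. Of its sequences, 1 of 1972 bases had 269, 91 and 19 reads and 1 of 1534 bases had 67, 46 and 211, so that each parent had its own main sequence. Its log2 ratio of hybrid to B. carinata, -1.04, was inside 2-fold with TMM factors (-0.90). Over 11 alternatives that ratio ran from -1.29 to -0.28 and was past 2-fold in 7. The phloem channel AKT2 had 23.4, 17.8 and 16.7 RPKM. TPK3 had 22.3, 12.2 and 11.4 RPKM, but its 485, 365 and 497 reads gave a parental ratio of 0.979 (interval 0.862 to 1.11). TPK2 had 5.82, 2.49 and 0.61 RPKM, from 129, 54 and 12 reads. KAB1, the soluble beta subunit of potassium channels, was the highest member of this family by RPKM, at 55.1, 64.3 and 86.7 RPKM. The root and guard cell channels GORK, KAT1 and SKOR did not reach 5 RPKM.

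Only 4 of the 11 antiporters reached 5 RPKM, and the family's sum was 71.1 RPKM in B. carinata and 33.1 in the hybrid, against 33.99 in B. napus. CHX16 had 14.6, 4.25 and 1.46 RPKM from 105, 28 and 9 reads on fragments of at most 260 bases. Its log2 ratios of 2.67 between the parents and -1.57 between the hybrid and B. carinata became 0.10 and -0.27 over sequences with reads in all 3 libraries, inside 2-fold. CHX20, known from guard cells, had 13.45, 8.04 and 5.43 RPKM, a read ratio between the parents of 1.78 (interval 1.51 to 2.10). CHX19 had 17.4, 7.79 and 11.3 RPKM, with the hybrid lowest, and a read rate of 0.543 of B. carinata (interval 0.456 to 0.645). Its log2 ratio to B. carinata in the hybrid, -1.06, was -0.90 with TMM factors. Over 11 alternatives that ratio ran from -1.35 to -0.14 and was past 2-fold in 5. CHX18, which like CHX19 acts in endosomal membranes in Arabidopsis, had 8.38, 6.61 and 6.92 RPKM. CHX9 had no read.

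The set lay near the background in the parental comparison. A gene counted as apart when the log2 ratio, after adding 1 RPKM, reached 1 in size and the higher library had at least 5 RPKM, and 39 of 56 members passed that filter. Of these, 4 lay at or beyond 2-fold below B. napus in B. carinata (AHA6, AHA9, CNGC16 and CNGC17), against 12.8% of all entries. The 7 higher in B. carinata (KAT3, CHX16, TPK2, AKT5, CNGC2, CNGC14 and CHX20) compare with 18.3% of all entries. The member shares were 10.3% and 17.9%. With TMM factors 3 members were lower and 11 higher (7.69% and 28.2%, against 8.74% and 24.5% of all entries), and with the median of ratios 3 and 12 (7.32% and 29.3%, against 9.05% and 24.8%). In B. napus 4 members stood at least 2-fold below both others (KAT3, CHX16, TPK2 and CNGC14; 9.25% of all entries), and in B. carinata 3 stood at least 2-fold above both (KAT3, CHX16 and AKT5; 6.2%) and none below both (3.6%). The median log2 ratio was 0.24 over members (interval -0.16 to 0.55) and 0.07 over all entries, and members high in 1 library alone passed the filter through that library. This and later intervals of medians are over genes and hold no spread between plants or libraries.

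Between the hybrid and B. carinata, 36 members passed the filter. Of them 6 were lower in the hybrid (KAT3, AKT5, SPIK, CHX16, CHX19 and KAT2), which is 16.7% of the members against 8.44% of all entries, and 0 were higher, against 3.81%. With TMM factors 4 were lower (11.1% against 6.74%) and with the median of ratios 9 (23.7% against 14.4%). Over sequences of at least 500 bases 1 of 29 was lower, AKT5 (3.45% against 6.29%); KAT3, SPIK and CHX16 have no sequence that long. No proton ATPase, calcium ATPase or cyclic nucleotide-gated channel was among the 6. AHA6 and AHA9 were below the filter here, with read rates of 0.438 (interval 0.286 to 0.658) and 0.584 (interval 0.351 to 0.955) of B. carinata. The median log2 ratio was -0.30 over members (interval -0.51 to -0.13) and -0.08 over all entries. That interval is over genes of 1 pair of libraries and is not a test of the set.

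Between the hybrid and B. napus, 37 members passed, of which 4 were lower in the hybrid (AHA6, AHA9, CNGC16 and SPIK, 10.8% against 8.07% of all entries) and 2 were higher (KAT3 and CNGC14, 5.41% against 8.51%). With TMM factors 3 were lower and 5 higher (8.57% and 14.3%, against 4.34% and 18.7% of all entries), and with the median of ratios 4 and 1 (11.4% and 2.86%, against 8.30% and 7.80%). The comparison shares the hybrid library with the one above. The medians were -0.10 over members (interval -0.31 to 0.09) and 0.01 over all entries. Of the 4 pollen forms AHA6 and SPIK were lower in the hybrid, ACA9 lay within 2-fold, and CNGC18 did not pass. The other 52 members, of which 34 passed (AHA9 and CNGC16 among them), had a median of -0.07 (interval -0.28 to 0.12).

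**Figure D4:**
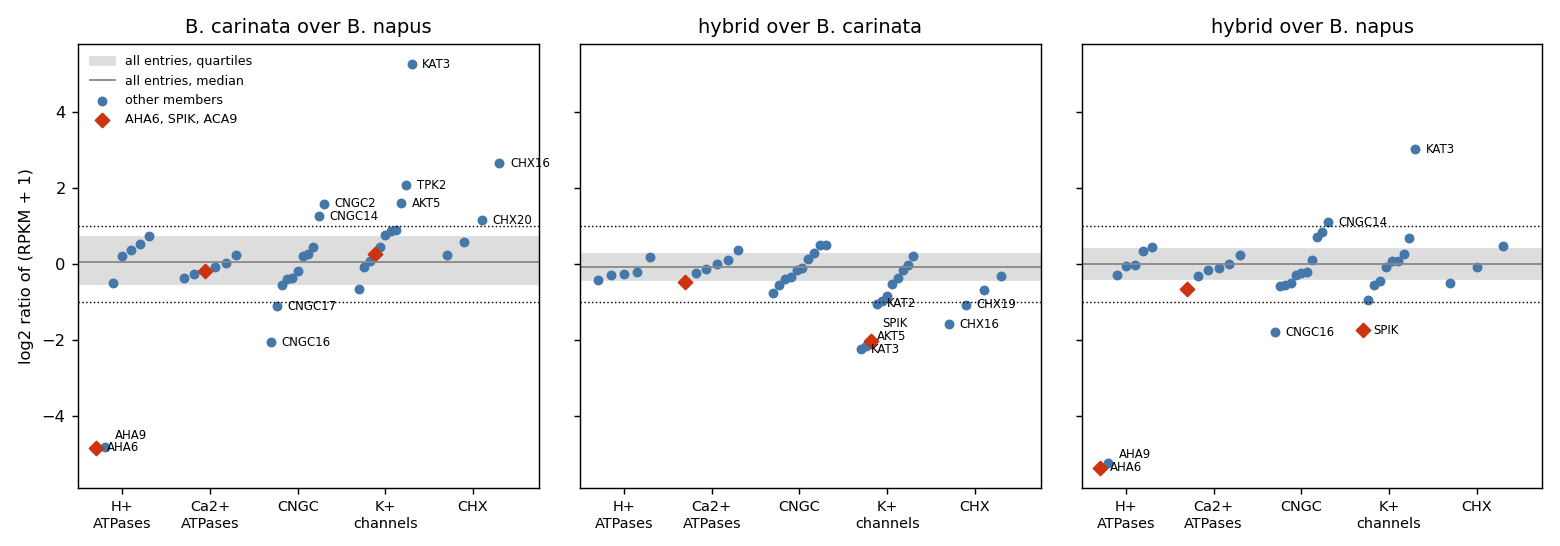
Log2 ratio of RPKM plus 1 (y axis) for members that passed the filter, by family (CNGC, cyclic nucleotide-gated channels; CHX, antiporters), in 3 pairwise comparisons of single libraries. Dotted lines mark 2-fold, the grey band holds the middle quartiles of all entries and the grey line their median; AHA6 and AHA9 lie below -4 against B. napus, while ACA9 (diamond) lies within 2-fold.

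Against the mean of both parents, the hybrid was lower by 2-fold or more for 5 of 37 members (AHA6, AHA9, SPIK, AKT5 and KAT3), 13.5% against 6.18% of all entries, and 0 were higher, against 0.717%. AHA6 had 0.38 RPKM in the hybrid and a parental mean of 28.2 RPKM. By rank, the hybrid was lowest of the 3 libraries for 16 of the 39 members with at least 5 RPKM (41.0% against 22.1% of all entries) and highest for 3, ACA4, ACA8 and CNGC4 (7.69% against 19.4%), none of them by 2-fold over both parents (0.235% of all entries). These ranks depend on scaling. With TMM factors the hybrid was lowest for 8 members (20.5% against 8.38% of all entries) and highest for 10 (25.6% against 44.4%). With the median of ratios it was lowest for 20 (51.3% against 33.7%) and highest for 1 (2.56% against 8.27%). Under each of these scalings the members' share with the hybrid lowest was above that of all entries. Scaling leaves the choice and weight of sequences unchanged, and the ranks were not recomputed for other choices of sequences. TMM factors moved the median over all entries by 0.28 for B. carinata over B. napus, 0.18 for hybrid over B. carinata and 0.45 for hybrid over B. napus, and the median of ratios by 0.28, -0.30 and -0.03. AHA6 and AHA9 kept log2 ratios to B. napus of -3.34 or lower in all 11 alternatives run for each.

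Some assembled sequences had reads from 1 parent alone. Of the 356 member sequences, 22 had at least 20 B. carinata reads and no B. napus read, and the hybrid had reads on 21 of them, with a median read rate of 0.332 of B. carinata (0.448 over all such sequences with a Swiss-Prot entry). The share without hybrid reads was 4.55% (3.54% over all such sequences), and 15 of the 22 stood below 0.5 of B. carinata (68.2% against 57.8%). Another 11 had at least 20 B. napus reads and no B. carinata read. The hybrid had reads on 7 of these and none on 4 (36.4%, against 7.45% over all such sequences), and its median rate was 0.0977 of B. napus (0.404 over all such sequences). All 11 stood below 0.5 of B. napus, where 63.4% of all such sequences did. They belonged to 7 genes (ACA2, ACA4, ACA12, AHA3, AHA8, CHX19 and CNGC16), so they are not independent of each other, and their part in the gene sums was not tested.

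Other ion transport families, listed by name outside this set, gave a wider reference. Their 117 entries included vacuolar proton ATPase subunits, potassium transporters, glutamate receptors, anion channels and 14-3-3-like proteins that bind the plasma membrane pumps. Of 92 that passed the filter between the parents, 17 were lower and 13 higher in B. carinata (18.5% and 14.1%, against 12.8% and 18.3% of all entries). Of 82 between hybrid and B. carinata, 5 were lower and 7 higher in the hybrid (6.10% and 8.54%, against 8.44% and 3.81% of all entries). Of 89 between hybrid and B. napus, 6 were lower and 8 higher (6.74% and 8.99%, against 8.07% and 8.51%). Vacuolar proton ATPase subunits had 7 of 19 lower (36.8%) and 2 higher (10.5%) in B. carinata than in B. napus. S-type anion channels had 2 of 3 higher (66.7%) and mechanosensitive channels 2 of 6 higher (33.3%). The shares of all entries there were 12.8% lower and 18.3% higher. The 5 K(+) efflux antiporters were within 2-fold in every comparison.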

How the data were processed

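RNA from floral buds was made into libraries with Illumina protocols, per the labels. For every assembled sequence the deposited table holds its read count and its RPKM in each library, with its length and the scores of the best Nr and Swiss-Prot hits, per the file headers. Which assembler, aligner and counting tool were used is not given in the sources used here. Read counts summed to the totals in the file headers, and the deposited RPKM equalled count over length and total within 5e-05. No sequence letters were used here.

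RPKM was summed per Swiss-Prot entry, which weighs short fragments more than reads do. Of 374 sequences with a matching name, 17 had a score ratio under 0.6 and 1 had no Nr score, and both kinds were left out. Log2 ratios were taken after adding 1 RPKM, which understates low genes. Depth allows a rate of up to 0.107, 0.111 and 0.106 reads per 1000000 at a count of 0 (3 reads) in B. carinata, the hybrid and B. napus. No test across samples is possible with 1 library per group. Medians have 95% order-statistic intervals over genes, which hold no spread between plants or libraries.

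The members, lists and pollen forms were chosen with earlier results of these data known. SPIK is the AKT6 entry. The tapetal marker ACOS5 was matched as 4-coumarate--CoA ligase-like 1 and PRF4 as Profilin-4, and VGD1 was not matched. The values of 1 potassium channel are not reported here, though it stays in the counts. Named genes are the 4 pollen forms, matched pollen relatives, up to 6 others per family of highest RPKM, and up to 5 per pairwise comparison of largest ratio. Other genes are named where a count of 5 or fewer includes them. Alternatives covered pseudocount, filter, score ratio, scaling, summing and sequence choice. TMM factors were computed with edgeR 4.0.16 under R 4.3.3. The median-of-ratios factors were also computed in R, from sequences with reads in all 3 libraries. All else was computed with Python 3.11.15 with pandas 2.3.3 and SciPy 1.17.1.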

Additional observations from a re-analysis of the deposited data

How the results depend on the processing

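The 16 summary results (members at least 2-fold lower or higher, pollen forms at least 2-fold lower, median of the other members) were recomputed under 15 alternatives. Sequences of at least 500 bases, and CNGC18 by its Nr name, were chosen after seeing the data. No paired analysis was possible because each group has 1 library. Counts within 1.5 times the reported count, and medians inside the reported median's interval over genes, were taken as unmoved: 186 values. These still include parental medians of 0.51 with TMM factors, 0.51 with the median of ratios and 0.00 in reads per 1000000, against 0.25, and a median of 0.04 for the hybrid over B. napus with the highest sequence per gene, against -0.07. The other 54 values follow; the cause was not tested. Parental counts are for B. carinata over B. napus. Shares in brackets are of members against all entries that passed the filter under the same setting, since the background moved as well. With a pseudocount of 5 RPKM the parental higher count was 4 (10.3% against 13.6%). Hybrid over B. carinata had 3 lower (8.33% against 5.09%) and 0 pollen forms. Hybrid over B. napus had 2 lower (5.41% against 4.85%), 1 higher (2.70% against 5.41%) and 1 pollen form. Hybrid over the parental mean had 3 lower (8.11% against 3.97%) and 1 pollen form. Without the filter, hybrid over B. napus had 9 lower (17.0% against 8.28%) and 4 higher (7.55% against 10.1%). Over the parental mean it had 10 lower (18.5% against 7.22%). At 10 RPKM, hybrid over B. carinata had 0 pollen forms, over B. napus 2 lower (8.70% against 7.29%), 0 higher (against 7.32%) and 1 pollen form, and over the parental mean 1 pollen form. Without the score ratio the pollen forms lower numbered 0, 1 and 1 in these comparisons, and SPIK in the hybrid over B. napus reversed to 0.13. With TMM factors the parental higher count was 11 (28.2% against 24.5%). Hybrid over B. napus had 5 higher (14.3% against 18.7%), 1 pollen form and a median of 0.36, against 0.46 over all entries. The parental mean gave a median of 0.13, against 0.26. With the median of ratios the parental higher count was 12 (29.3% against 24.8%) and hybrid over B. napus had 1 higher (2.86% against 7.80%). The medians over B. carinata and the parental mean were -0.56 and -0.35, against -0.38 and -0.22 over all entries. In reads per 1000000 the parental counts were 2 lower (5.71% against 13.7%) and 3 higher (8.57% against 13.7%). Hybrid over B. carinata had 3 lower (9.4% against 6.42%) and 0 pollen forms. Over B. napus it had 2 lower (5.88% against 7.45%), 0 higher (against 6.72%) and 1 pollen form, and over the parental mean 1 pollen form. With the highest sequence per gene the parental lower count was 8 (29.6% against 33.1%). Hybrid over B. carinata had 3 higher (14.3% against 17.99%) and 0 pollen forms. Over B. napus it had 8 higher (33.3% against 20.8%) and 1 pollen form. Over the parental mean it had 1 higher (4% against 1.89%) and 1 pollen form. With sequences read in all 3 libraries the parental higher count was 4 (11.8% against 11.4%). Hybrid over B. carinata had 3 lower (9.68% against 5.46%) and over B. napus 1 higher (2.94% against 5.30%). The wider pollen list had 3 of 5 that passed lower between the parents (60% against 12.8%). In the hybrid over B. napus it had 4 of 5 (80% against 8.07%). In both, AHA6, AHA9 and CNGC16 passed the filter only through B. napus, where they are high. With sequences of at least 500 bases the parental higher count was 4 (12.5% against 14.9%). Hybrid over B. carinata had 1 lower (3.45% against 6.29%) and 0 pollen forms. Over B. napus it had 0 higher (against 6.86%), and over the parental mean 3 lower (9.68% against 5.44%) and 1 pollen form. Counts under 20 reads (CNGC18, SPIK in the hybrid, most antiporters) limit what can be compared.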
